A study of Mus musculus with 12 samples.

Results

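The genes described here are 10 endothelial and angiogenic genes, chosen by name among the 21960 genes listed for each tumor: Pecam1, Cdh5, Kdr, Flt1, Tek, Tie1, Vwf, Eng, Emcn and Angpt2. RNA was sequenced from 12 whole mammary tumors of PyMT mice on the C57BL/6 background, in which the polyoma middle T oncogene drives tumor growth from the mammary epithelium. Each of the 4 treatment groups held 3 tumors, named after the antibody given (IgG1 or anti-PD-1) and, with doxorubicin, DOX/IgG1 or DOX/anti-PD-1. Mice without doxorubicin were treated from a tumor diameter of 0.6 cm with isotype control or PD-1-blocking antibody at 20 mg/kg, then at 10 mg/kg on days 6, 12 and 18. Mice with doxorubicin were treated from a diameter of 1 cm with 5 mg/kg of the drug once weekly for 5 weeks, and 10 mg/kg of either antibody followed a day later. Tumors with and without doxorubicin therefore also differ in size at the start, in the first antibody dose and in schedule, and these cannot be told apart from the drug. The labels give a treatment of 5 weeks for all 4 groups. Levels are in TPM, which scale the reads of a gene by its length and by the library and keep no read counts, so the sequencing depth of the tumors is unknown.

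Blood vessels are lined by endothelial cells, and growing tumors recruit vessels through secreted factors of the VEGF family. VEGF binds the receptor tyrosine kinases encoded by Kdr and Flt1 on these cells, where Kdr carries most of the growth signal and Flt1 binds the ligand tightly and can limit what reaches Kdr, partly as a soluble form. A further ligand and receptor system, the angiopoietins with Tek (Tie2) and Tie1, governs whether vessels stay quiescent or become open to remodeling.

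All 10 genes reached 1 TPM in at least 3 tumors and were tested in every comparison. Of the 10 genes, 6 were matched by symbol to a RefSeq promoter on GRCm38.p6, namely Kdr, Flt1, Tek, Tie1, Eng and Emcn. The 250 bases before the RefSeq start of the VEGF receptor genes are shown because these receptors share a ligand, with GGAA, the core that ETS family factors of endothelial cells bind, in capitals on either strand (TTCC on the strand shown). Kdr lies at chr5:75978456-75978705 and Flt1 at chr5:147726012-147726261, both on the minus strand and printed 5′ to 3′ along the gene. The gene positions given below are from another annotation, GENCODE vM21, whose gene starts differ for some genes, so 3 bases of the Kdr window, 11 of the Emcn window and 212 of the Tie1 window lie inside the gene as that annotation has it, and 0 of the others.
Kdr: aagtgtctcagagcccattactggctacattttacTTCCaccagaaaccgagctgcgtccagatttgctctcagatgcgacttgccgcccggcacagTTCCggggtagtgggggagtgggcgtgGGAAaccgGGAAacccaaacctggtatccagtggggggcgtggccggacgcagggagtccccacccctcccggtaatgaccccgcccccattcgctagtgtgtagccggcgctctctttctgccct
Flt1: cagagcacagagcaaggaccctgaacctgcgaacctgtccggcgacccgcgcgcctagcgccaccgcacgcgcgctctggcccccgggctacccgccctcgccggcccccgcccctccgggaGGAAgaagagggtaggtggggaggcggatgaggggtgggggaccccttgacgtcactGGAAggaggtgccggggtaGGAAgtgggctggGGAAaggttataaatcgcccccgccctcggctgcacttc
The GGAA core occurred 4 times in each of these windows, and between 2 and 7 times in those of the other 4 genes. It is common, since 93.4% of the 32851 promoters of the same length hold it and 54.7% hold it at least 3 times. The hypoxia element core ACGTG, searched on both strands, was in none of the 6 windows, beside 16.6% of all promoters. TATAAA was found once, before Flt1, beside 12.4% of all promoters. These matches are descriptions of the letters and were not tested for binding.

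One tumor stood apart in its red blood cell markers and is named before the comparisons. In DOX/IgG1 replicate 1 the 7 red blood cell markers summed to 2352 TPM, led by Hbb-bs at 1010 TPM, while the other 11 tumors held between 41.9 and 297 TPM. Its values across genes had a median correlation of 0.940 with the other tumors, the lowest of the 12, where genes are not independent replicates. The next lowest was close, 0.944 for DOX/anti-PD-1 replicate 3. DOX/IgG1 replicate 1 had the most genes listed at 0 TPM, 8104, where the other tumors had between 6534 and 7730. It also held the highest levels of Thbs1, an inhibitor of vessel growth, at 982 TPM and of the ligand Vegfa at 187 TPM. The doxorubicin values of the 10 genes and of the VEGF ligands are therefore also given without it, a choice among those planned for every tumor.

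In these bulk samples, fewer endothelial cells and less RNA per endothelial cell cannot be told apart. The part of other cell types in the levels of the 10 genes, Pecam1 among them, was not tested. Pecam1, an adhesion molecule at the junctions between endothelial cells, had the highest mean of the 10 genes at 37.9 ± 13.7 TPM (SD, n = 12). It was followed by Flt1 (21.8 ± 6.60 TPM), Cdh5 (20.0 ± 8.49 TPM), Kdr (17.5 ± 5.10 TPM), Vwf (15.9 ± 9.88 TPM) and Emcn (13.2 ± 6.21 TPM). Eng (12.6 ± 6.94 TPM), Angpt2 (11.2 ± 3.63 TPM), Tek (7.34 ± 2.64 TPM) and Tie1 (4.29 ± 1.51 TPM) were lower. The SDs of most neighbors in this order overlapped, so only its ends were well marked: Pecam1 was the highest of the 10 in 9 of 12 tumors and Tie1 the lowest in 11 of 12. Vwf had the widest spread over all 12 tumors, with an SD of 62.1% of its mean, which rested on DOX/IgG1 replicate 2: without that tumor it was 37.5%, and Eng varied most with 58.2%. Kdr had the narrowest over all 12, with 29.1%, close to Flt1 with 30.3%, and that order changed when some single tumors were left out. Pecam1 and the other endothelial genes were thus measured in every tumor, beside the epithelial marker Epcam, which stood between 418 and 954 TPM.

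**Figure D1:**
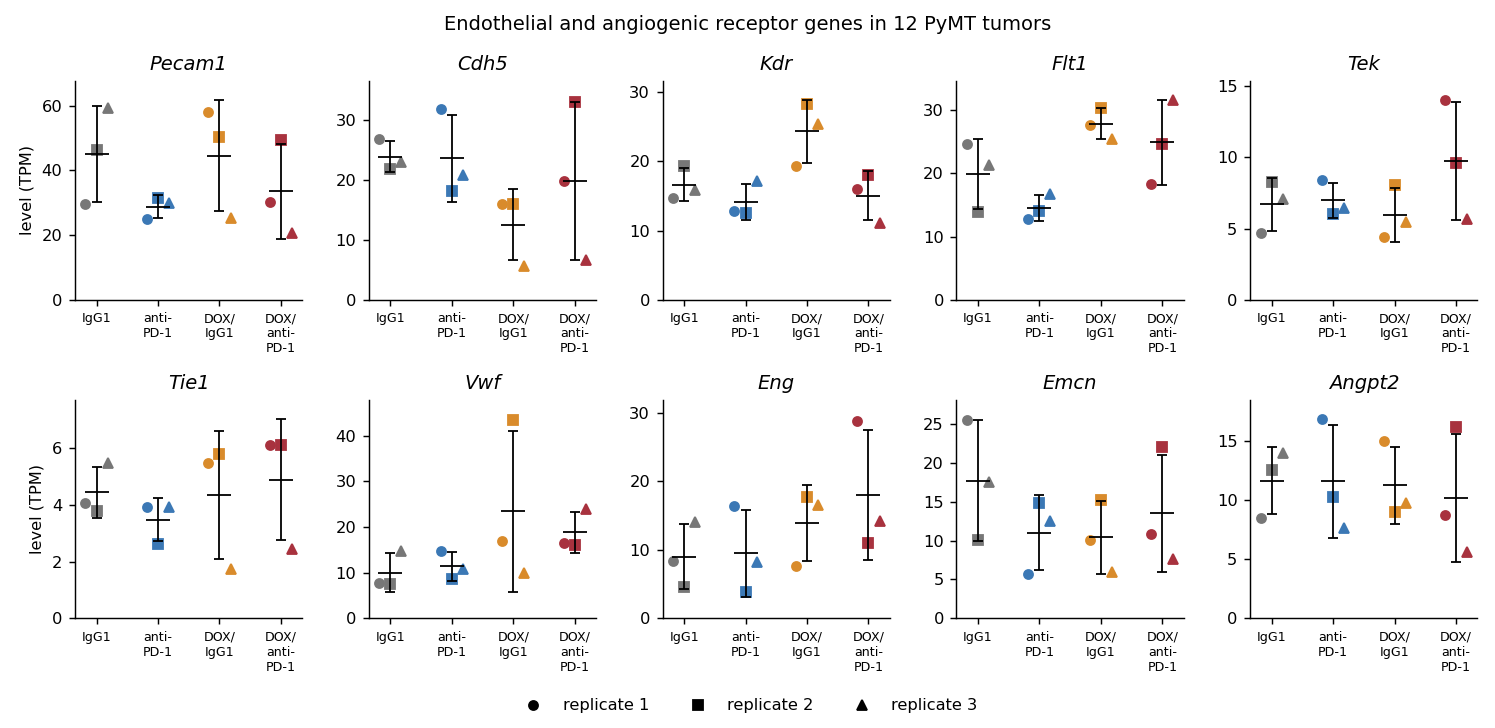
Level of each of the 10 genes in TPM on the vertical axis, by treatment group; symbols are single tumors and black bars are means with SD (n = 3). Cdh5 was lowest in replicate 3 of both doxorubicin groups, at 5.70 and 6.65 TPM, and Vwf highest in DOX/IgG1 replicate 2 at 43.3 TPM.

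The first question was whether the 10 genes differed with doxorubicin. Across both antibodies, 6 tumors with the drug against 6 without, 0 of the 10 genes passed the limits in limma, adjusted p under 0.1 with a log2 fold change beyond 1 in size, beside 0.0882% of the 14735 genes tested. At an unadjusted p below 0.05 there were 2 of 10, Flt1 and Vwf, beside 11.9% of all genes. That count was 3 after scaling by the median of ratios, with Cdh5 added, beside 11.47% of all genes, and 1 to 4 when single tumors were left out. It was 4 without DOX/IgG1 replicate 1 and without DOX/anti-PD-1 replicate 2, with Cdh5 and Eng added, beside 15.4% and 11.9% of all genes in these fits. It was 1, Flt1, without IgG1 replicate 1, IgG1 replicate 2, anti-PD-1 replicate 2 or DOX/anti-PD-1 replicate 3, beside 9.25% to 10.2%. In 0 of 10 genes did the 6 tumors of one arm lie wholly on one side of the other, beside 0.719% of all genes. A log2 fold change here is taken between group means of log2(TPM + 1), which understates differences in low genes. They ran from -0.72 for Cdh5 to 0.82 for Vwf, with 7 above 0 (6 after the scaling) and a median of 0.10, beside 63.3% above 0 (51.8% after the scaling) and a median of 0.12 over all genes tested. That median was 0.02 after the scaling, a shift of 0.10 shared by all genes, which is small beside the confidence intervals below. Of all genes, 6 passed upward and 7 downward on the deposited values, and 5 and 14 after the scaling.

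Flt1, on chromosome 5 from 147561604 to 147726011 (GENCODE vM21, GRCm38), encodes the VEGF receptor that also serves as a decoy. Its level was 24.6, 13.9 and 21.3 TPM in the IgG1 group, 12.7, 14.0 and 16.8 TPM in the anti-PD-1 group, 27.7, 30.4 and 25.5 TPM in the DOX/IgG1 group and 18.3, 24.7 and 31.7 TPM in the DOX/anti-PD-1 group. All 3 tumors of each doxorubicin group lay above the 3 tumors given the same antibody alone, although the arms overlapped, since DOX/anti-PD-1 replicate 1 was below 2 of the IgG1 tumors. The log2 fold change was 0.61 with a 95% confidence interval of 0.17 to 1.05, and limma gave an adjusted p of 0.285. An exact permutation test over all arrangements of the 12 tumors, two-sided, gave p = 0.013. Without DOX/IgG1 replicate 1 the log2 fold change was 0.61 (limma adjusted p = 0.209). The values are per gene, so the membrane and soluble forms of Flt1 are summed.

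Kdr, the main signaling receptor for VEGF, on chromosome 5 from 75932827 to 75978458, had a level of 14.7, 19.4 and 15.9 TPM in the IgG1 group, 12.9, 12.5 and 17.1 TPM in the anti-PD-1 group, 19.3, 28.3 and 25.5 TPM in the DOX/IgG1 group and 16.0, 18.0 and 11.1 TPM in the DOX/anti-PD-1 group. The highest 2 values were both in the DOX/IgG1 group, and the lowest was in a DOX/anti-PD-1 tumor, so the arms overlapped. The log2 fold change with doxorubicin was 0.29 (95% confidence interval -0.15 to 0.73, limma adjusted p = 0.599). As a description, the Flt1 level divided by the Kdr level, a ratio taken up after the values were seen, lay between 1.00 and 2.84 (median 1.26) in the 6 tumors with doxorubicin and between 0.715 and 1.68 (median 1.055) in the 6 without. The value of 2.84 came from DOX/anti-PD-1 replicate 3, and the other doxorubicin tumors reached at most 1.43, within the range of the tumors without the drug. Flt1 exceeded Kdr in 9 of 12 tumors, in all 6 with doxorubicin and 3 of 6 without.

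Vwf encodes von Willebrand factor, the large clotting protein stored in endothelial cells and also carried by platelets, and lies on chromosome 6 from 125546774 to 125686679. Its level was 7.62, 7.61 and 14.8 TPM in the IgG1 group, 14.8, 8.62 and 10.7 TPM in the anti-PD-1 group, 17.0, 43.3 and 9.88 TPM in the DOX/IgG1 group and 16.5, 16.0 and 23.9 TPM in the DOX/anti-PD-1 group. Of the 6 doxorubicin tumors, DOX/IgG1 replicate 3 alone fell within the range of the tumors without the drug. The log2 fold change was 0.82 (95% confidence interval 0.12 to 1.53, limma p = 0.0246, adjusted p = 0.350; exact permutation p = 0.0195). It was 0.55 without DOX/IgG1 replicate 2, the highest tumor (limma adjusted p = 0.532), and 0.87 without DOX/IgG1 replicate 1 (limma adjusted p = 0.255). The platelet and megakaryocyte markers, another source of Vwf, summed to a median of 58.0 TPM with and 65.5 TPM without doxorubicin. That sum was led by the integrin Itgb3, at a log2 fold change of -0.34, and the single markers differed in direction, with Itga2b at -0.76, Pf4 at 0.59, Gp1ba at 0.54 and Ppbp at 0.51. For DOX/IgG1 against IgG1 the 4 markers tested stood at 1.25 for Gp1ba, 1.05 for Pf4, -0.05 for Itga2b and -0.69 for Itgb3, and for DOX/anti-PD-1 against anti-PD-1 at -0.17, 0.13, -1.48 and 0.00, with an adjusted p from limma of at least 0.504. Pf4 was listed at 0 TPM in DOX/anti-PD-1 replicate 3, where the nearest doxorubicin tumor had 8.45 TPM. Its values of 0.59 and 0.13 include that tumor and would be higher without it. The part of platelets in the Vwf values was not tested.

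Cdh5, VE-cadherin, the adhesion protein that seals endothelial junctions, on chromosome 8 from 104101625 to 104144511, had the lowest log2 fold change. Its level was 26.9, 21.8 and 23.1 TPM in the IgG1 group, 31.9, 18.2 and 20.9 TPM in the anti-PD-1 group, 16.0, 16.0 and 5.70 TPM in the DOX/IgG1 group and 19.8, 33.1 and 6.65 TPM in the DOX/anti-PD-1 group. The DOX/IgG1 tumors were all below the IgG1 tumors, while the DOX/anti-PD-1 group held both the highest value of all 12 tumors and the second lowest. The log2 fold change was -0.72 (95% confidence interval -1.48 to 0.04, limma p = 0.0609, adjusted p = 0.449; exact permutation p = 0.0952). It was -0.42 without DOX/anti-PD-1 replicate 3 (limma adjusted p = 0.687) and -0.83 without DOX/IgG1 replicate 1 (limma adjusted p = 0.303). An antisense gene overlaps Cdh5 on the other strand, and whether strand was used in the authors' quantification is not given in the sources used here.

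Eng encodes endoglin, a co-receptor for BMP and TGF-beta ligands on proliferating endothelium, on chromosome 2 from 32646595 to 32682669. Its level was 8.41, 4.62 and 14.0 TPM in the IgG1 group, 16.4, 3.89 and 8.19 TPM in the anti-PD-1 group, 7.58, 17.7 and 16.5 TPM in the DOX/IgG1 group and 28.9, 11.0 and 14.3 TPM in the DOX/anti-PD-1 group. The spread within each group was wide and all 4 groups overlapped. The log2 fold change was 0.77 (95% confidence interval -0.04 to 1.59, limma adjusted p = 0.449), and 0.95 without DOX/IgG1 replicate 1 (limma adjusted p = 0.249). Eng overlaps Fpgs on the opposite strand, so its values carry the same uncertainty as those of Cdh5.

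Pecam1, on chromosome 11 from 106654217 to 106750628, the most abundant of the 10 genes, differed little on average between the arms. Its level was 29.5, 46.2 and 59.2 TPM in the IgG1 group, 24.8, 31.5 and 30.0 TPM in the anti-PD-1 group, 57.9, 50.4 and 25.3 TPM in the DOX/IgG1 group and 30.3, 49.4 and 20.7 TPM in the DOX/anti-PD-1 group. High and low tumors occurred in both arms, and the anti-PD-1 group alone was narrow. The log2 fold change with doxorubicin was 0.05 (95% confidence interval -0.52 to 0.62, limma adjusted p = 0.966) and -0.06 after scaling by the median of ratios, so its sign rests on the scaling, and it lay between -0.11 and 0.22 when single tumors were left out. Other endothelial genes did not all follow Pecam1, since 23 other pan-endothelial markers, led by Cd34, summed to 346, 303 and 424 TPM in the IgG1 group, 259, 270 and 273 TPM in the anti-PD-1 group, 377, 557 and 355 TPM in the DOX/IgG1 group and 370, 411 and 400 TPM in the DOX/anti-PD-1 group. The median sum was 388 TPM with and 288 TPM without doxorubicin, and all 6 doxorubicin tumors were above 5 of the 6 others, IgG1 replicate 3 being the exception. Emcn, endomucin, a sialomucin of capillary and venous endothelium on chromosome 3 from 137341067 to 137432185, ranged from 5.95 to 22.1 TPM (median 10.5) with doxorubicin and from 5.66 to 25.6 TPM (median 13.7) without, a log2 fold change of -0.23 (95% confidence interval -0.98 to 0.51), which lay between -0.43 and -0.08 when single tumors were left out.

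In the Tie system, Angpt2 is the ligand that endothelial cells release when vessels are remodeled, and it can oppose the stabilizing ligand Angpt1. Angpt2, on chromosome 8 from 18690263 to 18741562, ranged from 5.61 to 16.1 TPM (median 9.38) in the 6 doxorubicin tumors and from 7.63 to 16.8 TPM (median 11.4) in the others. The lowest and highest Angpt2 values were thus a DOX/anti-PD-1 and an anti-PD-1 tumor. The receptor Tek, on chromosome 4 from 94739289 to 94874976, ranged from 4.38 to 14.0 TPM (median 6.86) with the drug and from 4.68 to 8.41 TPM (median 6.80) without. Its partner Tie1, a receptor that modulates Tek, on chromosome 4 from 118471191 to 118490061, ranged from 1.73 to 6.12 TPM (median 5.64) and from 2.61 to 5.47 TPM (median 3.91). Tie1 was low in replicate 3 of both doxorubicin groups, at 1.73 and 2.43 TPM, and between 5.49 and 6.12 TPM in their other 4 tumors, which were all above the 5.47 TPM of the highest tumor without the drug. The arms overlapped for all 3 genes, and Tek exceeded Tie1 in 11 of 12 tumors. Their log2 fold changes were -0.13, 0.11 and 0.10, with 95% confidence intervals between -0.76 and 0.80 and adjusted p from limma of 0.895, 0.915 and 0.936. Angpt2 lies within Mcph1, on the opposite strand, with the same uncertainty as Cdh5. The Angpt2 level divided by the Angpt1 level, also taken up after the values were seen, had a median of 0.780 with and 0.817 without doxorubicin, and Angpt2 exceeded Angpt1 in 1 of 6 tumors of each arm.

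**Figure D2:**
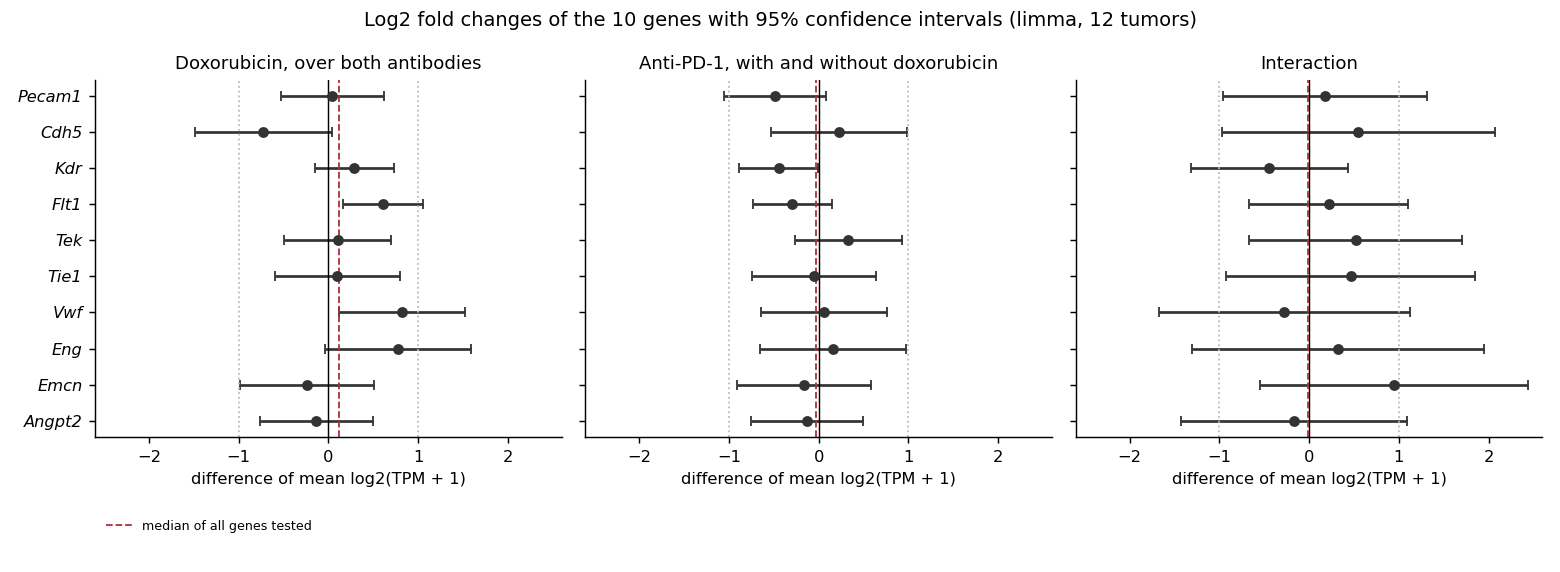
Log2 fold change of each gene on the horizontal axis with its 95% confidence interval, for doxorubicin, for anti-PD-1 and for their interaction (12 tumors); the dashed line is the median of all genes tested and the dotted lines mark an absolute value of 1. For doxorubicin, Cdh5 (-0.72) lies opposite to Flt1 (0.61), Vwf (0.82) and Eng (0.77), and Pecam1 lies near 0.

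The same question was asked within each antibody, with 3 tumors against 3. The 2 doxorubicin comparisons share no tumors. In the DOX/IgG1 tumors against the IgG1 tumors, 0 of 10 genes passed both limits in limma, beside 0.0360% of 13874 genes, and 1 of 10 had an unadjusted p below 0.05, beside 7.73%. That gene was Cdh5, which stood at -0.996 (standard error 0.41, limma adjusted p = 0.621), and at -0.55 without DOX/IgG1 replicate 3. The count was 0 with all 12 tumors in one fit and without any 1 of the IgG1 tumors, beside 5.32% to 9.08% of all genes, and without DOX/IgG1 replicate 3 the gene counted was Vwf, beside 5.73%. The groups did not overlap for Cdh5 and Flt1, 2 of 10 genes beside 14.0% of all genes. Vwf stood at 0.96 (standard error 0.53), and at 0.41 without DOX/IgG1 replicate 2, while Kdr stood at 0.51 (standard error 0.29). Emcn stood at -0.71 (standard error 0.45), with -0.41 without IgG1 replicate 1 and -0.39 without DOX/IgG1 replicate 3, and Pecam1 at -0.04 (standard error 0.38). In the DOX/anti-PD-1 tumors against the anti-PD-1 tumors, 0 of 10 passed in limma, beside 0% of 13736 genes, and Flt1 alone had an unadjusted p below 0.05, beside 8.63% of all genes. This count was 0 after scaling by the median of ratios and without anti-PD-1 replicate 2, DOX/anti-PD-1 replicate 2 or DOX/anti-PD-1 replicate 3, beside 5.92% to 9.87%, and 2, Vwf and Eng, without anti-PD-1 replicate 1, beside 7.40%. Flt1 stood at 0.72 (standard error 0.30, limma adjusted p = 0.548), against 0.50 for DOX/IgG1 against IgG1, which was 0.27 without IgG1 replicate 2. The groups did not overlap for Flt1 and Vwf, 2 of 10 genes beside 14.9%. Vwf stood at 0.69 (standard error 0.32) and Eng at 0.94 (standard error 0.52), the widest difference of the 10 here, which was 0.48 without anti-PD-1 replicate 2 and 0.56 without DOX/anti-PD-1 replicate 1. Cdh5 stood at -0.45 (standard error 0.51), turning to 0.15 without DOX/anti-PD-1 replicate 3, and Pecam1 at 0.13 (standard error 0.33). With 3 tumors against 3 the exact permutation test cannot go below p = 0.1, which these non-overlapping genes reached.

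The next question was whether PD-1 blockade went with a difference in these genes. Over all 12 tumors, 0 of 10 genes passed both limits in limma for anti-PD-1, beside 0.00679% of 14735 genes, and 1 of 10 had an unadjusted p below 0.05, beside 4.77%. That gene was Kdr, with a log2 fold change of -0.45 (95% confidence interval -0.88 to -0.01, limma adjusted p = 1.0; exact permutation p = 0.0368). The count was 0 to 2 when single tumors were left out, with 2, Kdr and Pecam1, without IgG1 replicate 1 or DOX/anti-PD-1 replicate 2, 1, Pecam1, without DOX/IgG1 replicate 3, and 0 without IgG1 replicate 2 or 3, anti-PD-1 replicate 1 or 2, DOX/IgG1 replicate 2, or DOX/anti-PD-1 replicate 1 or 3, beside 3.77% to 6.11% of all genes in these fits. Pecam1 followed with -0.49 (95% confidence interval -1.06 to 0.08, limma adjusted p = 1.0). Tek stood at the other end, at 0.33 (95% confidence interval -0.27 to 0.92), and at 0.19 without DOX/anti-PD-1 replicate 1. The other 7 log2 fold changes lay between -0.29 for Flt1 and 0.22 for Cdh5.

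In the anti-PD-1 tumors against the IgG1 tumors, 0 of 10 genes passed in limma, beside 0% of 13692 genes, 0 of 10 had an unadjusted p below 0.05, beside 4.60%, and the groups overlapped for every one of the 10, while 9.88% of all genes did not overlap. The largest differences with all 6 tumors were those of Emcn, -0.64 (standard error 0.43), and Pecam1, -0.58 (standard error 0.29). Emcn was -0.26 without anti-PD-1 replicate 1, -0.34 without IgG1 replicate 1 and -0.98 without IgG1 replicate 2, so its rank rests on single tumors. Pecam1 was -0.36 without IgG1 replicate 3, and without IgG1 replicate 1 it had an unadjusted p below 0.05 in limma, beside 6.71% of all genes. In the DOX/anti-PD-1 tumors against the DOX/IgG1 tumors, 0 of 10 passed, beside 0% of 13946 genes, and 0 of 10 had an unadjusted p below 0.05, beside 4.70%. Kdr alone did not overlap, 1 of 10 genes beside 10.2%, with 16.0, 18.0 and 11.1 TPM against 19.3, 28.3 and 25.5 TPM. Tek stood at 0.59 (standard error 0.45) and Cdh5 at 0.50 (standard error 0.61), both with overlapping groups. Tek was 0.31 without DOX/anti-PD-1 replicate 1 and 0.89 without DOX/anti-PD-1 replicate 3, and Cdh5 was 1.10 without the latter, 0.02 without DOX/anti-PD-1 replicate 2 and 0.05 without DOX/IgG1 replicate 3. For Kdr the log2 fold change was -0.67 (standard error 0.32, limma adjusted p = 0.988), and the exact permutation p of 0.1 was the smallest that 3 tumors against 3 allow. In limma its unadjusted p was below 0.05 with all 12 tumors in one fit and without DOX/IgG1 replicate 1, beside 6.45% and 7.54% of all genes.

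Whether the doxorubicin difference depended on the antibody was tested as an interaction. In limma 0 of 10 genes passed, beside 0.00679% of 14735 genes, and 0 of 10 had an unadjusted p below 0.05, beside 4.71%. With all 12 tumors the interaction was widest for Emcn, at 0.95 (95% confidence interval -0.54 to 2.44), since its level was 25.6, 10.0 and 17.5 TPM in the IgG1 group and 10.0, 15.3 and 5.95 TPM in the DOX/IgG1 group, but 5.66, 14.9 and 12.6 TPM in the anti-PD-1 group and 10.9, 22.1 and 7.60 TPM in the DOX/anti-PD-1 group. These 4 groups overlapped. Cdh5 followed with 0.55 (95% confidence interval -0.97 to 2.07) and Tek with 0.52 (95% confidence interval -0.68 to 1.71). These values moved with single tumors, from 0.55 without DOX/anti-PD-1 replicate 2 to 1.28 without IgG1 replicate 2 for Emcn, from 0.07 without DOX/anti-PD-1 replicate 2 to 1.15 without DOX/anti-PD-1 replicate 3 for Cdh5, and from 0.24 without DOX/anti-PD-1 replicate 1 to 0.82 without DOX/anti-PD-1 replicate 3 for Tek. Without anti-PD-1 replicate 1 Emcn, at 0.57, was below Eng at 0.78 and Cdh5 at 0.78. For Kdr the interaction was -0.44 (95% confidence interval -1.32 to 0.43), and -0.26 without DOX/anti-PD-1 replicate 3, and intervals of this width leave room for differences in either direction.

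To see how single genes differed relative to Pecam1, which is 1 endothelial gene and does not stand for all of them, each gene was set against it in the same tumor, as the difference of their log2(TPM + 1). The tumors with doxorubicin were compared with those without by exact permutation tests, two-sided, for the 9 other genes. Cdh5 stood at -1.34 ± 0.61 relative to Pecam1 (SD, n = 6) with doxorubicin and at -0.57 ± 0.61 without, and 4 of the 6 doxorubicin tumors were below every tumor without the drug (exact permutation p = 0.0584). Vwf stood at -0.90 ± 0.76 and -1.68 ± 0.58 (exact permutation p = 0.0779). Flt1 stood at -0.47 ± 0.64 and -1.03 ± 0.50 (exact permutation p = 0.119), and DOX/anti-PD-1 replicate 3 was the highest tumor for both Vwf and Flt1. All 9 exact permutation p-values were above 0.05, and Tie1 stood at -2.83 ± 0.41 with and -2.89 ± 0.39 without doxorubicin.

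The choice of the reference gene mattered. With Cdh5 in its place, the differences relative to the reference were larger for the same genes. Vwf differed by 1.55 and Tie1 by 0.82 between the arms, with an exact permutation p of 0.00866 for each, and 5 of 6 doxorubicin tumors lay above every tumor without the drug for both. These differences share the Cdh5 values, which were lower in most doxorubicin tumors, so they do not measure the genes independently of each other.

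**Figure D3:**
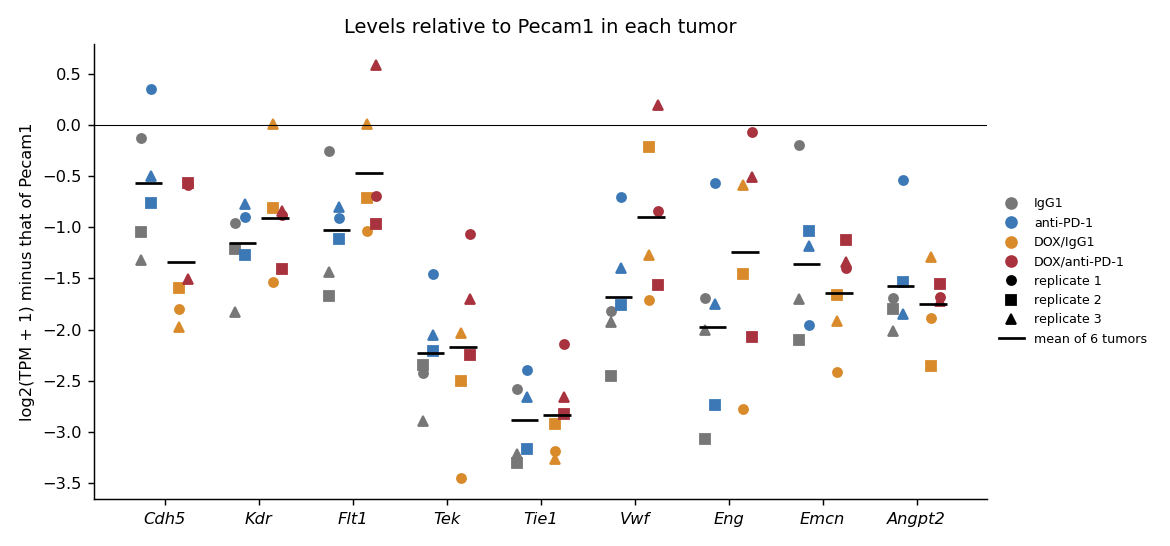
Difference of log2(TPM + 1) between each gene and Pecam1 in the same tumor on the vertical axis; in each gene the left points are tumors without and the right points tumors with doxorubicin, and lines are means of 6 tumors. Cdh5 is lower with doxorubicin (-1.34 against -0.57) and Vwf higher (-0.90 against -1.68), with overlapping points.

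How the 10 genes varied together from tumor to tumor was described by correlation with Pecam1 over the 12 tumors, 9 relations in all, with 100000 resamples for each permutation p. Tie1 was closest, with a Pearson r of 0.69 (permutation p = 0.0139) and a Spearman rho of 0.58 (permutation p = 0.0495). Without the 2 tumors farthest from the median of Pecam1, r was 0.64, and it was 0.77 within the 6 tumors with doxorubicin and 0.54 within the 6 without. Angpt2 followed with an r of 0.57 (permutation p = 0.053) and a rho of 0.43 (permutation p = 0.162), and r was 0.43 without those 2 tumors. Both relations were weaker without doxorubicin, where the r of Angpt2 was 0.25 against 0.80 with the drug, a difference that was not tested. Emcn had an r of 0.48 (permutation p = 0.11) and a rho of 0.52 (permutation p = 0.0825). Kdr had an r of 0.47 (permutation p = 0.125) and a rho of 0.45 (permutation p = 0.14). For the receptors Flt1 and Tek the r values were 0.15 and 0.08, and for Vwf 0.20. The 9 p-values are not corrected for their number here.

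Cdh5 and Pecam1, both junction proteins of endothelial cells, had an r of 0.40 (permutation p = 0.212) and a rho of 0.13 (permutation p = 0.681), with r = 0.47 without the 2 farthest tumors. Taken as deviations from the group means, r was 0.69 (permutation p = 0.0129) and rho 0.55 (permutation p = 0.0715), and that r was 0.32 without replicate 3 of both doxorubicin groups, the 2 farthest tumors there, so it rests on them. The relation differed between the arms, with an r of 0.73 in the 6 tumors with doxorubicin, where replicate 3 of both groups was low in both genes, and of -0.35 in the 6 without. The difference between these r values was not tested. Eng had the only negative r with Pecam1, -0.21 (permutation p = 0.519), with a rho of -0.24 (permutation p = 0.443) and an r of -0.23 without the 2 farthest tumors. Over all 45 pairs of the 10 genes, 34 had an r above 0 and the median r was 0.19, from -0.50 for Cdh5 with Flt1 to 0.69 for Pecam1 with Tie1, as a description with no test.

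**Figure D4:**
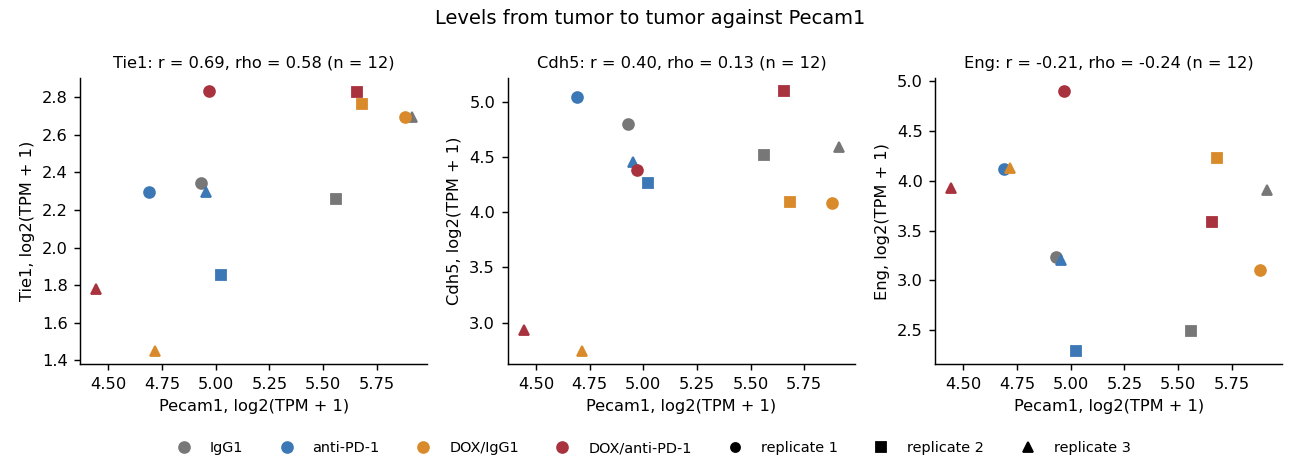
Level of Tie1, Cdh5 and Eng, in log2(TPM + 1), against that of Pecam1 on the horizontal axis; points are the 12 tumors. Tie1 goes with Pecam1 (r = 0.69), Cdh5 has 2 low doxorubicin tumors (r = 0.40), and Eng has no positive relation (r = -0.21).

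The ligands and partners of these receptors were read from a list of VEGF ligands and co-receptors, of which 8 genes were tested. None passed both limits with doxorubicin, 3 had an unadjusted p below 0.05, beside 11.9% of all genes, all with a log2 fold change above 0, and the median log2 fold change was 0.43 beside 0.12 over all genes. All 8 were above 0, and 7 after scaling by the median of ratios, beside 63.3% and 51.8% of all genes. These shares are the background for the counts of the lists that follow as well. Pgf, placental growth factor, which binds Flt1 and not Kdr, had a level of 55.1, 18.0 and 46.0 TPM in the IgG1 group, 25.0, 17.6 and 37.1 TPM in the anti-PD-1 group, 179, 82.1 and 81.2 TPM in the DOX/IgG1 group and 25.0, 96.0 and 46.4 TPM in the DOX/anti-PD-1 group. All 3 DOX/IgG1 tumors were above the IgG1 tumors, while DOX/anti-PD-1 replicate 1 was as low as the anti-PD-1 group. Its log2 fold change over both antibodies was 1.22 (limma p = 0.00466, adjusted p = 0.245; exact permutation p = 0.026).

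Vegfc, a ligand of the lymphatic receptor Flt4 and of Kdr, had 3.77, 6.05 and 8.35 TPM in the IgG1 group, 1.32, 1.41 and 3.38 TPM in the anti-PD-1 group, 4.52, 13.9 and 14.1 TPM in the DOX/IgG1 group and 18.6, 14.7 and 2.06 TPM in the DOX/anti-PD-1 group. Of the 6 doxorubicin tumors, 4 were above every other tumor, and the log2 fold change was 1.21 (limma adjusted p = 0.333). Nrp1, a co-receptor that presents VEGF to Kdr, followed with 0.56 (limma adjusted p = 0.390). Vegfa, the main ligand of Kdr and Flt1, was the most abundant of the list and stood at 0.38 (limma adjusted p = 0.762), from 17.5 TPM in DOX/IgG1 replicate 3 to 187 TPM in replicate 1 of the same group. Vegfb, Vegfd, Flt4 and Nrp2 had log2 fold changes between 0.08 and 0.48, with Vegfd listed at 0 in anti-PD-1 replicate 1. The 0.48 was that of Vegfd and would be lower without that tumor, since the nearest tumor without doxorubicin had 1.3 TPM. Without DOX/IgG1 replicate 1, the highest tumor in Vegfa and Pgf, Vegfa stood at -0.03 and Pgf at 1.03 (limma adjusted p = 0.979 and 0.190), Vegfc at 1.45 (limma adjusted p = 0.146) and Nrp1 at 0.80 (limma adjusted p = 0.0452), and 7 of the 8 were above 0 with a median of 0.35. In that fit 3 of the 8 again had an unadjusted p below 0.05 in limma, beside 15.4% of all genes.

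In the angiopoietin and Tie list, 3 of 4 genes were tested (Angpt4 was not), and 0 had an unadjusted p below 0.05 in limma. Angpt1, the stabilizing ligand of Tek, had a log2 fold change of -0.07, Ptprb, the endothelial phosphatase that acts on Tek, 0.11, and Svep1, an extracellular protein of vessel walls, -0.33, with an adjusted p from limma of at least 0.668. Angpt1 stood between 9.37 and 18.2 TPM with doxorubicin and between 8.87 and 17.4 TPM without, so the arms overlapped.

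Beside the 10 genes, 19 lists were counted in this way, and in the doxorubicin comparison 0 of their 173 genes tested passed both limits in limma, while 25 had an unadjusted p below 0.05, which is 14.5% beside 11.9% of all genes. Of these, Ackr1 and Gp1bb reached 1 TPM in doxorubicin tumors only, so they entered the test through the arm where they were high, and without such genes it was 23 of 171, or 13.5%, beside 11.6%. Among 23 other pan-endothelial markers, 17 had a log2 fold change above 0, also after scaling, with a median of 0.28, and 1 had an unadjusted p below 0.05. That gene was Aqp1, a water channel of endothelium and red blood cells, at 0.71 (limma adjusted p = 0.324). Ushbp1 and Egfl7 had larger log2 fold changes, both 0.78, with wider spread between tumors. Cd34, the most abundant of these markers, stood at 0.30. Among 14 tip cell and angiogenic endothelial genes, 6 were above 0 (5 after scaling), a smaller share than the 63.3% of all genes. An unadjusted p below 0.05 in limma was reached by 4, beside 11.9% of all genes. These were Unc5b, a netrin receptor, at 0.63, the basement membrane collagens Col4a1 at 0.52 and Col4a2 at 0.60, and Mcam at 0.56. Other genes of the list went the other way. Esm1 stood at -0.17 for DOX/IgG1 against IgG1 and -0.89 for DOX/anti-PD-1 against anti-PD-1, and Aplnr at -0.50 and -0.03. Between these comparisons Plvap (-0.84 and 0.60) and Nid2 (0.56 and -1.52) differed in sign.

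In the endothelial Notch list, 6 of 7 genes were above 0, with a median of 0.45, and 2 had an unadjusted p below 0.05. Nrarp, a feedback regulator induced by Notch, was listed at 2.41, 0 and 0 TPM in the IgG1 group and 0, 4.55 and 2.04 TPM in the anti-PD-1 group, and at 6.94, 4.49 and 3.66 TPM in the DOX/IgG1 group and 5.01, 5.53 and 6.49 TPM in the DOX/anti-PD-1 group. Only anti-PD-1 replicate 2 reached into the range of the doxorubicin tumors (limma log2 fold change 1.67, adjusted p = 0.220; exact permutation p = 0.00649). Jag1 stood at 0.62 and Notch4 at 0.50, and Hey1, the most abundant, at -0.07. In the BMP and TGF-beta list, which holds the ligands and partners of Eng, 5 of 7 were above 0 (3 after scaling), with a median of 0.06 (-0.05 after scaling). Its largest differences were 0.66 for Id1, -0.64 for Smad6 and 0.43 for Id3, its most abundant gene Tgfbr2 stood at -0.01, and the ligands Gdf2 and Bmp10 were listed at 0 in all 12 tumors.

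Of 16 endothelial transcription factors, 9 were above 0 (8 after scaling), with a median of 0.08 (-0.01 after scaling). Sox7 stood at 0.62 and Ets2, the most abundant, at -0.44 (limma adjusted p = 0.393). Of 3 adhesion molecules other than Ackr1, 2 were above 0 with an unadjusted p below 0.05, beside 11.6% of all genes kept in the same way: Icam1 at 0.73 and Vcam1 at 0.63 (limma adjusted p = 0.350 and 0.348). Ackr1, a marker of venules, is given as a description only and was listed at 0, 0 and 0.96 TPM in the IgG1 group, 0, 0.39 and 0.52 TPM in the anti-PD-1 group, 0, 2.30 and 1.85 TPM in the DOX/IgG1 group and 3.42, 1.47 and 1.51 TPM in the DOX/anti-PD-1 group. Of 6 lymphatic markers, 3 were above 0, with a median of 0.07 (-0.02 after scaling). The lymphatic chemokine Ccl21a, which has near-identical copies that make its own value uncertain, stood at -1.70 (limma adjusted p = 0.371), Reln at 1.02, Prox1 at -0.71 and Pdpn, the most abundant, at 0.34.

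Of 8 angiogenesis inhibitors, 7 were above 0, with a median of 0.36. Col18a1, the source of endostatin, stood at 0.80 (limma adjusted p = 0.272), Thbs2 at -0.68 (limma adjusted p = 0.313), Tnmd at 0.49 and Thbs1, the most abundant, at 0.30. Thbs1 reached 981.75 TPM in DOX/IgG1 replicate 1, against 166.55 TPM in the next doxorubicin tumor. Its sign, and so its place among the 7, rests on that tumor. Of 14 hypoxia response genes, 9 were above 0 (7 after scaling), with a median of 0.09 (-0.02 after scaling). Egln1 stood at 0.54, Ldha at -0.53 (limma adjusted p = 0.354) and Aldoa, the most abundant, at -0.13.

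Markers of other cell types in these tumors are given beside the 10 genes, whose summed level was 154, 148 and 192 TPM in the IgG1 group, 148, 122 and 134 TPM in the anti-PD-1 group, 180, 224 and 131 TPM in the DOX/IgG1 group and 170, 206 and 130 TPM in the DOX/anti-PD-1 group. The sum was lowest in anti-PD-1 replicate 2 and in replicate 3 of both doxorubicin groups, and highest in DOX/IgG1 replicate 2. The 11 pericyte and mural cell markers, led by Acta2, summed to 458, 238 and 423 TPM in the IgG1 group, 246, 333 and 370 TPM in the anti-PD-1 group, 225, 737 and 1092 TPM in the DOX/IgG1 group and 499, 431 and 818 TPM in the DOX/anti-PD-1 group. The list did not move one way, with a median log2 fold change of 0.24 (0.14 after scaling). Above 0 were 7 of the 11, Tagln at 1.15 (limma adjusted p = 0.317), Acta2 at 0.79, Myh11 at 0.73, Cspg4 at 0.67, Pdgfrb at 0.25, Notch3 at 0.24 and Des at 0.22. Below 0 were Abcc9 at -0.51, Kcnj8 at -0.47, Higd1b at -0.25 and Rgs5 at -0.06. Replicate 3 of both doxorubicin groups, lowest in Cdh5 and Tie1, thus held the highest sums of this list, which Acta2 leads, and the part of this in their endothelial values was not tested.

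Of 7 fibroblast markers, 5 were above 0 with a median of 0.34, led in size by Dcn at 1.20 (limma adjusted p = 0.262; exact permutation p = 0.013), and the most abundant, Col1a1, stood at -0.11. For Col1a1 this averages opposite differences. It was -1.20 for DOX/IgG1 against IgG1 and 0.97 for DOX/anti-PD-1 against anti-PD-1 (limma adjusted p = 0.494 and 0.533). Of 10 adipocyte markers, 9 were above 0 with a median of 0.92, with Retn at 1.45, Fabp4, which capillary endothelium also expresses, at 1.42 and Car3, the most abundant, at 1.22. The DOX/IgG1 replicate 2 tumor, highest in Vwf and Kdr, held the highest adipocyte and fibroblast sums of the 12, 1673 and 1622 TPM, and their part in its values was not tested. Skeletal muscle markers, with 4 of 8 above 0 and Acta1 the most abundant, summed to 768 TPM in DOX/anti-PD-1 replicate 1, the tumor with the highest Eng and Tek, and their part was not tested either.

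Of 9 epithelial markers, 3 were above 0 with a median of -0.08, and Epcam, the most abundant, stood at -0.54 (limma adjusted p = 0.300). Of 7 macrophage markers, 6 were above 0 (5 after scaling) with a median of 0.28, and Cd14, the most abundant, stood at 0.31. Of 6 platelet and megakaryocyte markers tested, Gp1bb was listed at 0 in all tumors without the drug and at up to 3.14 TPM with it. Of the other 5, 3 were above 0 with a median of 0.51, and 0 had an unadjusted p below 0.05 in limma. Of 5 red blood cell markers tested, 4 were above 0 with a median of 1.13, and Hbb-bs, the most abundant, stood at 1.25, although globin genes are so alike that reads could be assigned to any of them. The sum of these markers was 2352 TPM in DOX/IgG1 replicate 1, against 189.84 and 41.92 TPM in replicates 2 and 3 of that group. The value of Hbb-bs would therefore be lower without DOX/IgG1 replicate 1.

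**Figure D5:**
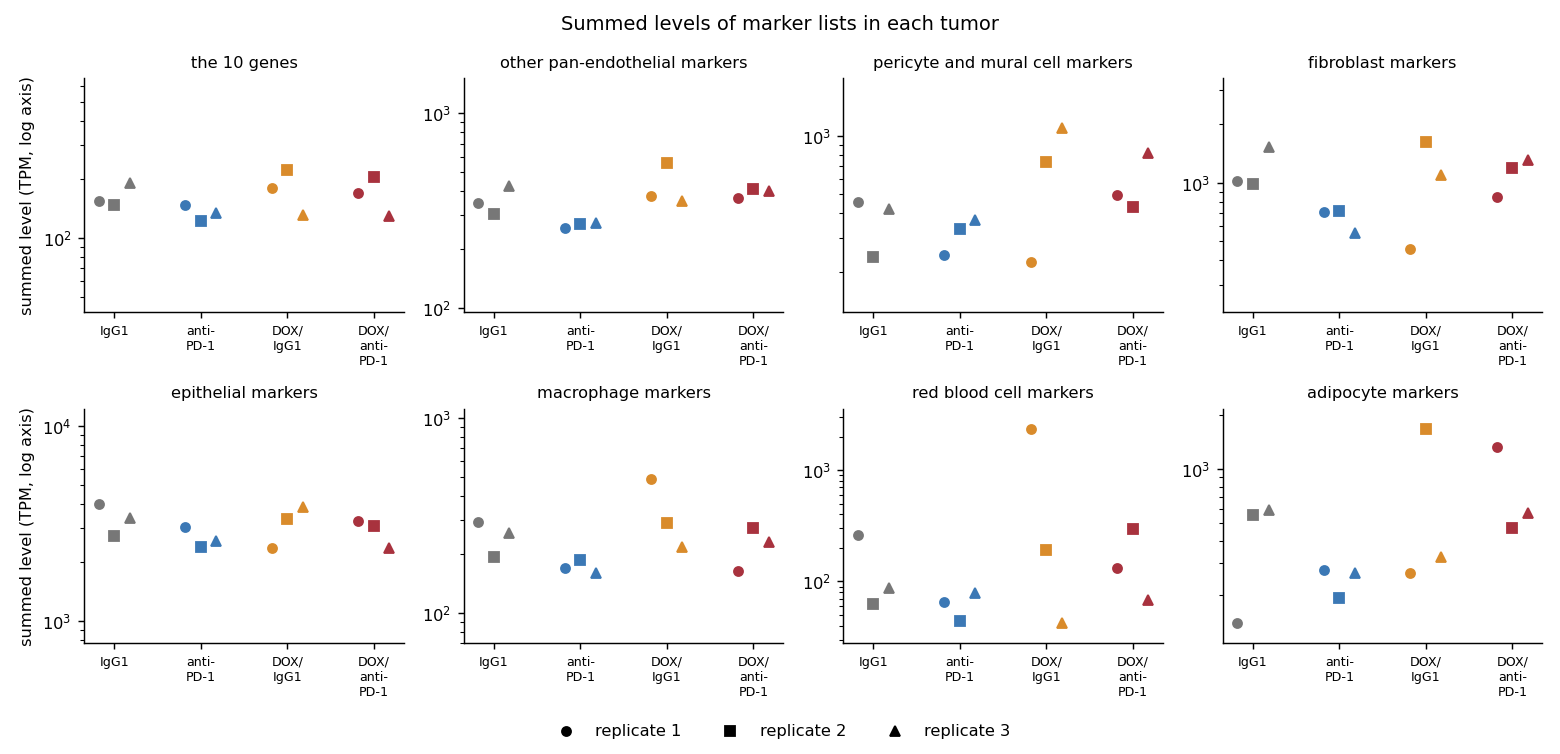
Summed level of the 10 genes and of 7 marker lists in each tumor, in TPM on log axes, by treatment group. The 10 genes stay between 122 and 224 TPM, while red blood cell markers reach 2352 TPM in DOX/IgG1 replicate 1 and mural markers 1092 TPM in DOX/IgG1 replicate 3.

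Without DOX/IgG1 replicate 1, 301 genes passed both limits in limma for doxorubicin (2.04% of 14735) rather than 13, and again 0 of the 10 genes did. Among the other listed genes 8 passed: Dcn and Lum of the fibroblast list, Acta2, Tagln and Myh11 of the pericyte and mural list, Krt19 of the epithelial list, Reln of the lymphatic list, and Ackr1. The venular marker Ackr1 was kept for the test through the doxorubicin tumors alone, so its pass shows nothing further. Which cells these differences came from was not tested. Dcn stood at 1.62 (standard error 0.20, limma adjusted p = 0.00331) and was above every tumor without doxorubicin in all 5 remaining doxorubicin tumors. Of the 10 genes, Eng had the largest log2 fold change above 0 without this tumor, 0.95, and Tie1 stood at 0.00 (limma adjusted p = 0.998). Kdr stood at 0.37, Tek at 0.19, Pecam1 at -0.07, Emcn at -0.24 and Angpt2 at -0.24, with an adjusted p from limma of at least 0.425.

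The genes whose pattern over the 12 tumors was most like that of the 10 genes were sought outside them by Pearson correlation with the mean of their standardized log2(TPM + 1). Among the closest were Chrdl1 (r = 0.85), Tusc1 (r = 0.85), Arhgef18 (r = 0.85) and Tro (r = 0.84), as a description over 12 tumors with no p. They were picked as the highest of many genes, so their r values are high by selection. Tusc1 was listed at 0 TPM in anti-PD-1 replicate 2 and DOX/anti-PD-1 replicate 3, and Tro in anti-PD-1 replicate 1 and DOX/anti-PD-1 replicate 3. Each of the 10 genes was set against the mean of the other 9, which leaves it out, and Tie1 followed that mean most closely (r = 0.85), then Pecam1 (r = 0.63), and Flt1 least (r = 0.10), also as a description. The mean was lowest in DOX/anti-PD-1 replicate 3 (-0.66) and anti-PD-1 replicate 2 (-0.65) and highest in DOX/IgG1 replicate 2 (0.83) and DOX/anti-PD-1 replicate 2 (0.76), so the doxorubicin arm held both ends.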

How the data were processed

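Total RNA from 12 tumors was made into stranded libraries and read from 1 end. The authors aligned the reads to mm10 with STAR, quantified genes with RSEM and deposited log2(TPM + 1), which was turned back to TPM. Coordinates came from GENCODE vM21 by Ensembl identifier (21860 of 21960 genes). Groups were taken from the labels.

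Genes with at least 1 TPM in at least 3 compared tumors were tested with limma 3.58.1 (R 4.3.3) on log2(TPM + 1), using lmFit, then eBayes with its trend option; p-values were two-sided and adjusted over all genes tested by Benjamini-Hochberg. A gene passed with an adjusted p under 0.1 and a log2 fold change beyond 1 in size. The 4 comparisons of 2 groups used their 6 tumors, and the doxorubicin, anti-PD-1 and interaction contrasts all 12. Exact permutation tests, correlations and ratios used Python 3.11.15, numpy 2.4.6 and scipy 1.17.1. The main limma fit and an exact permutation test were tried on simulated data, and the other steps were not. The depth cannot be recovered, so no counting error is given.

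The 10 genes and the lists were chosen with earlier results of these data known. Named genes are the 10, the VEGF and angiopoietin lists in full, from every other list the genes that passed in any comparison and up to 3 with the largest absolute log2 fold change for doxorubicin, the most abundant gene of each list of another cell type, and the 5 genes most correlated with the mean of the 10. The most abundant genes of the endothelial and pathway lists, Gdf2, Bmp10, Col4a1, Esm1, Aplnr, Plvap, Nid2, Gp1ba, Ppbp, the mural genes beyond the first 3 and the genes that passed only without a tumor were named after values were seen, as were the ratios. Some genes that this rule covers are not reported. Alternatives were another pseudocount, 2 other filters, scaling by the median of ratios, a replicate block, no trend, all tumors in one fit, leaving out each tumor, Cdh5 as reference and deviations from group means. Protein sequences were not among the files used here and are not described.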

Additional observations from a re-analysis of the deposited data

Results flagged for a closer look

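In 6 of 204 groups of 6 tumors (2.94%), the highest or lowest tumor stood far from the nearest of the others by Dixon's test, and chance alone marks about 1 in 20 groups. None of the 20 groups of the 10 genes was among them. Vegfd was listed at 0 TPM in anti-PD-1 replicate 1, where the nearest tumor without doxorubicin had 1.3 TPM. Pf4 was listed at 0 TPM in DOX/anti-PD-1 replicate 3, where the nearest doxorubicin tumor had 8.45 TPM. Thbs1 was 981.75 TPM in DOX/IgG1 replicate 1, against 166.55 TPM in the next doxorubicin tumor. In that tumor the angiogenesis inhibitors, of which Thbs1 is the most abundant, summed to 1173.25 TPM, against 427.92 TPM in the next doxorubicin tumor and 718.91 TPM in IgG1 replicate 1. The other pan-endothelial markers summed to 556.53 TPM in DOX/IgG1 replicate 2, against 410.83 TPM in the next doxorubicin tumor and 424.27 TPM in IgG1 replicate 3. The platelet and megakaryocyte markers summed to 85.84 TPM in DOX/anti-PD-1 replicate 2, against 59.25 TPM in the next doxorubicin tumor, but IgG1 replicate 2, without the drug, was higher at 87.27 TPM.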

How the results depend on the processing

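None of the 10 genes passed both limits in limma under any of the 106 alternative fits, and the lowest adjusted p was 0.209. Of 1058 log2 fold changes under alternatives, 975 kept their sign and 83 did not, among them Kdr for DOX/anti-PD-1 against anti-PD-1 (-0.040), Eng for anti-PD-1 against IgG1 (0.021) and Pecam1 for doxorubicin over both antibodies (-0.062) after scaling by the median of ratios. Depth is unknown, so the counting error of low genes such as Tie1 cannot be given. With Cdh5 as the reference, 2 relative differences had an adjusted p below 0.05 over the 9 rather than 0, and those of Emcn (0.49) and Angpt2 (0.59) turned sign. With deviations from the group means 1 correlation did rather than 0, Tie1 with Pecam1 (r = 0.77), which was 0.48 without replicate 3 of both doxorubicin groups, the 2 farthest tumors, and that of Flt1 was -0.15. After the scaling the correlation of Tek was -0.057. The cause was not tested.

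The number of all genes that passed was more open to the settings. For DOX/IgG1 against IgG1 it was 13 without the mean-variance trend, rather than 5. Without the trend it was also 3 for DOX/anti-PD-1 against anti-PD-1, 1 for anti-PD-1 against IgG1 and 3 for DOX/anti-PD-1 against DOX/IgG1, rather than 0 in each. In the last of these it was 3 after the scaling and 2 with all 12 tumors in one fit. For doxorubicin over both antibodies it was 6 with a pseudocount of 0.1 and 7 with a minimum of 5 TPM, rather than 13. For anti-PD-1 and for the interaction it was 0 with that pseudocount, with that minimum and after the scaling, rather than 1 each, and 3 without the trend. For the interaction it was also 3 without a filter. The cause was not tested.

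Tumors with the same replicate number in different groups were checked for a shared component. The correlations of their deviations ran from -0.10 to 0.13 over 18 pairs (median 0.02), with 4 above 0.1. Those of tumors with different numbers ran from -0.19 to 0.11. With 3 tumors per group and overlapping ranges, this check cannot decide whether the numbers pair the tumors. With a replicate block, 2 rather than 5 genes passed for DOX/IgG1 against IgG1, and 0 rather than 1 for anti-PD-1 and for the interaction, and it changed no call among the 10 genes. At an unadjusted p below 0.05 in limma the block gave 3 of the 10 rather than 2 for doxorubicin over both antibodies, 2 rather than 1 for DOX/anti-PD-1 against anti-PD-1 and 0 rather than 1 for anti-PD-1, beside 12.5%, 8.55% and 5.12% of all genes.

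When single tumors were left out, the number of all genes that passed was 0 to 122 for DOX/IgG1 against IgG1, 0 to 4 for DOX/anti-PD-1 against anti-PD-1, 0 to 4 for anti-PD-1 against IgG1, 0 to 4 for DOX/anti-PD-1 against DOX/IgG1, 0 to 301 for doxorubicin over both antibodies, 0 to 5 for anti-PD-1 over all tumors and 0 to 1 for the interaction. The highest values for doxorubicin over both antibodies (301) and for DOX/IgG1 against IgG1 (122) came without DOX/IgG1 replicate 1. When single tumors were left out, log2 fold changes for DOX/IgG1 against IgG1 reached both signs, from -0.31 to 0.31 for Pecam1, from -0.36 to 0.017 for Tek, from -0.36 to 0.30 for Tie1 and from -0.26 to 0.084 for Angpt2. In the same way those for DOX/anti-PD-1 against anti-PD-1 ran from -0.18 to 0.42 for Pecam1, from -0.93 to 0.15 for Cdh5, from -0.064 to 0.26 for Kdr, from -0.16 to 0.56 for Emcn and from -0.58 to 0.11 for Angpt2. Values for anti-PD-1 against IgG1 ran from -0.28 to 0.11 for Cdh5, from -0.13 to 0.22 for Tek, from -0.47 to 0.45 for Eng and from -0.33 to 0.19 for Angpt2. Those for DOX/anti-PD-1 against DOX/IgG1 lay from -0.37 to 0.010 for Flt1, from -0.25 to 0.53 for Tie1, from -0.54 to 0.48 for Vwf, from -0.062 to 0.59 for Eng, from -0.088 to 0.62 for Emcn and from -0.58 to 0.11 for Angpt2. The ranges for doxorubicin over both antibodies were from -0.11 to 0.22 for Pecam1, from -0.032 to 0.26 for Tek, from -0.014 to 0.32 for Tie1 and from -0.31 to 0.029 for Angpt2. The values for anti-PD-1 over all tumors were from -0.016 to 0.52 for Cdh5, from -0.27 to 0.12 for Tie1, from -0.17 to 0.34 for Vwf, from -0.074 to 0.38 for Eng, from -0.36 to 0.024 for Emcn and from -0.31 to 0.031 for Angpt2. Finally, for the interaction the ranges were from -0.18 to 0.46 for Pecam1, from -0.74 to 0.28 for Vwf, from -0.13 to 0.78 for Eng and from -0.53 to 0.16 for Angpt2. The cause was not tested.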
